A study of Mus musculus with 20 samples.

Results

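Small leucine-rich proteoglycans are secreted matrix proteins, and 9 of their genes were followed here through 4 cell populations sorted from the mouse mammary gland. The 9 genes were Dcn (decorin), Lum (lumican), Kera (keratocan), Ogn (osteoglycin), Omd (osteomodulin), Aspn (asporin), Fmod (fibromodulin), Prelp and Bgn (biglycan). They were matched by gene symbol in a table of 46603 genes, and all 9 passed the filter on low counts that left 17236 genes for testing. The mice were virgin FVB/N females aged 6 to 8 weeks, with no other genotype or treatment named. Cells of the fourth inguinal glands were depleted of lineage-positive cells and sorted. MRU, for mammary repopulating unit, is the CD24-medium, CD49f-high gate, which is enriched in basal epithelial cells. The populations were CD200+CD200R1+ MRU, the remaining MRU, CD200+ non-MRU (outside the MRU gate, negative for CD200R1) and CD200R1+ non-MRU (outside that gate, negative for CD200). CD200 is a glycoprotein of the cell surface, and CD200R1 is the receptor for it. From their labels, the remaining MRU may be cells that lack both proteins or all cells that were not double positive. There were 20 libraries of 1000 cells each, since 5 mice, numbered 2 to 6, gave all 4 populations. The CD200R1+ non-MRU library of mouse 4 held about 10% of cells from mouse 3.

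These proteins share a core of leucine-rich repeats that binds collagen fibrils and sets their diameter and spacing. Dcn, Bgn and Aspn form one class, of which Dcn and Bgn carry chondroitin or dermatan sulfate chains and Aspn carries a stretch of aspartate residues and no such chain. Fmod, Lum, Kera, Prelp and Omd form another class, several of which can carry keratan sulfate and sulfated tyrosines, and Ogn belongs to a further class. Several members also bind growth factors such as TGF-beta and cell surface receptors. In the mammary gland, matrix of this kind lies mainly in the stroma around the ducts, where fibroblasts make decorin and lumican.

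In GRCm38 most of the members lie in gene clusters, as annotated in GENCODE M21. Dcn (ENSMUSG00000019929, chromosome 10, 97479609 to 97518143), Lum (ENSMUSG00000036446, 97565128 to 97572703) and Kera (ENSMUSG00000019932, 97606879 to 97613692) follow each other on the plus strand, ahead of the family gene Epyc. Aspn (ENSMUSG00000021388, chromosome 13, 49544443 to 49567565), Omd (ENSMUSG00000048368, 49582462 to 49592822) and Ogn (ENSMUSG00000021390, 49608046 to 49624501) do the same behind Ecm2, a further gene of the family. Prelp (ENSMUSG00000041577, chromosome 1, 133910304 to 133921414, minus strand) and Fmod (ENSMUSG00000041559, 134037254 to 134048277, plus strand) are 115.8 kb apart. Bgn (ENSMUSG00000031375) stands alone on chromosome X, 73483602 to 73495933. All 9 are protein-coding.

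RefSeq promoter windows of GRCm38.p6, from 250 bases before to 50 bases after the start site, were matched for 7 of the 9 members. Fmod and Prelp are shown because they were the members with higher levels in MRU, and Aspn and Ogn because, in the same cluster on chromosome 13, Aspn differed within MRU past the threshold used here and Ogn did not. The sequences run 5′ to 3′ on the gene's strand, and capitals mark matches on either strand to TATAAA or CCAAT.
Fmod (chr1:134037004-134037303, plus strand): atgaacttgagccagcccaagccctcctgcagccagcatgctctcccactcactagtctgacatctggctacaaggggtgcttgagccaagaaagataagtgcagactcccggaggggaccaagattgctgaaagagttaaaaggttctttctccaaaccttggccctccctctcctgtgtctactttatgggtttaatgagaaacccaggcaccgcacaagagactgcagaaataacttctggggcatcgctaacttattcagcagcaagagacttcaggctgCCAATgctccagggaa
Prelp (chr1:133921352-133921651, minus strand): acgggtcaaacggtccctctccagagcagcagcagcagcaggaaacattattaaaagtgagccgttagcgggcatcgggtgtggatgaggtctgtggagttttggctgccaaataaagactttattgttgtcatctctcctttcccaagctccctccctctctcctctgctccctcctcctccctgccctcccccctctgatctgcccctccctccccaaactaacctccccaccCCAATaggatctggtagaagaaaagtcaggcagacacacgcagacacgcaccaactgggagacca
Aspn (chr13:49544193-49544492, plus strand): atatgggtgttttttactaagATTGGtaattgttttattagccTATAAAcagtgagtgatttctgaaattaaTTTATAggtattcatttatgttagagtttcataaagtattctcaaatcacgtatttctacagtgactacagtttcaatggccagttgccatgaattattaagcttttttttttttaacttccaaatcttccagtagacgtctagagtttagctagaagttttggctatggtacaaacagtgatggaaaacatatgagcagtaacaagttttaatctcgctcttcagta
Ogn (chr13:49607765-49608064, plus strand): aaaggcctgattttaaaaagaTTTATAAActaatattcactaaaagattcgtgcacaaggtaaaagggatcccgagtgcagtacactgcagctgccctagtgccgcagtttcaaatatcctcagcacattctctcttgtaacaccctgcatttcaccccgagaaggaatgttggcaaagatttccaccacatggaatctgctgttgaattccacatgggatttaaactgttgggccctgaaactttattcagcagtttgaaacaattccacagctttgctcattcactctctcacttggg
TATAAA was found in Aspn and Ogn, 2 of the 7 windows, and in 13.6% of 32851 RefSeq promoter windows of the same length. In Ogn its matches on the opposite strands overlap each other. CCAAT was found in Fmod, Prelp, Aspn and Kera, 4 of the 7 windows, against 37.4% of all windows. GGGCGG was found in Bgn alone of the 7, against 35.7% of all windows. Neither TGANTCA, present in 7.81% of windows, nor the CArG box, present in 1.63%, was found in any of the 7. GC content was 51% in the Fmod window, 55.3% in Prelp, 31% in Aspn and 42.3% in Ogn.

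Library totals ran from 10853587 to 13862963 counts, and the nearest library of each of the 20 was one of its own population. The labels call every sample epithelial. The basal and luminal keratins Krt14 and Krt8 averaged 1881 and 462 CPM (counts relative to a common library total, with TMM scaling) in CD200+CD200R1+ MRU cells, 1374 and 436 in remaining MRU cells, and 59.8 and 1546 in CD200+ non-MRU cells, but 0.744 and 5.93 CPM in CD200R1+ non-MRU. The sort was on protein, and RNA of the sorting markers did not follow it throughout. Cd200 averaged 101.6 CPM in CD200+CD200R1+ MRU, 198.5 in remaining MRU cells, 199 in CD200+ non-MRU cells and 3.54 in CD200R1+ non-MRU, and was 1.95-fold lower in CD200+CD200R1+ MRU than in remaining MRU cells (adjusted p 0.0023). Cd200r1 was scarce, at 2.76, 1.62, 4.05 and 0.864 CPM in the same order, and was 4.67-fold higher in CD200+ non-MRU cells than in CD200R1+ non-MRU (adjusted p 0.0224), a call lost in 2 of 10 fits that left out a library. By edgeR, Itga6 (CD49f) was 14.05-fold higher in CD200+CD200R1+ MRU than in CD200+ non-MRU cells (adjusted p 7.88e-11). Over CD200R1+ non-MRU it was 115.7-fold higher (adjusted p 3.54e-14). Cd24a (CD24) was 32.9-fold higher in CD200+CD200R1+ MRU than in CD200R1+ non-MRU (adjusted p 3.02e-11). Against CD200+ non-MRU it was not called, at 1.29-fold lower (adjusted p 0.27). In CD200R1+ non-MRU the fibroblast marker Pdgfra averaged 499.7 CPM, and the summed level of 11 fibroblast markers ran from 2809.6 to 4414 CPM. That sum ran from 53.99 to 106 CPM in CD200+CD200R1+ MRU, from 51.2 to 112 in remaining MRU cells and from 858 to 2382 in CD200+ non-MRU cells. The lowest CD200+ non-MRU library was that of mouse 6, with the others at 1805 CPM or above. Of the 11 markers, 3 were higher in CD200+ non-MRU cells than in CD200R1+ non-MRU (Pi16 4.63-fold, Dpp4 2.37-fold and Tcf21 5.32-fold) and 7 were lower. No fibroblast marker was without a count in any population.

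The members together took between 0.125% and 0.187% of counts in CD200+CD200R1+ MRU, between 0.103% and 0.161% in remaining MRU cells, between 0.614% and 1.66% in CD200+ non-MRU cells and between 2.97% and 4.58% in CD200R1+ non-MRU. In bulk samples such as these, fewer cells of a type and less RNA per cell cannot be told apart. Differences were tested with edgeR's quasi-likelihood test, with Benjamini-Hochberg adjustment over all tested genes and a threshold of 0.05. A log2 fold change is given as the first population named over the second, with its standard error (SE).

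Against CD200R1+ non-MRU, 2 members were higher and 7 lower in CD200+CD200R1+ MRU, where 22.8% of all tested genes were called higher and 24% lower, 46.8% in all. The same counts, 2 higher and 7 lower, were found for remaining MRU against CD200R1+ non-MRU, where 22.4% of genes were higher and 21.6% lower, 44.1% in all. Against CD200+ non-MRU, 2 members were higher and 6 lower in CD200+CD200R1+ MRU, with 23.9% of genes higher and 24.6% lower, 48.5% in all. In the remaining MRU 2 were higher and 6 lower than in CD200+ non-MRU, with 24.1% of genes higher and 20.1% lower, 44.1% in all. The 2 higher members were Fmod and Prelp in all of these comparisons. The comparisons share populations, so these counts are not separate evidence. Between the non-MRU populations 5 members were lower and none higher in CD200+ non-MRU cells, with 23.8% of all genes higher and 28.6% lower, 52.5% in all. Within MRU only Aspn was called, lower in CD200+CD200R1+ MRU, with 1.62% of all genes higher and 6.64% lower, 8.26% in all. The median log2 fold change of the 9 members was 0.09 within MRU, beside 0.02 over all tested genes, and -1.27 between the non-MRU populations, beside -0.06 over all genes. It was -4.83 for CD200+CD200R1+ MRU over CD200R1+ non-MRU, beside 0.01 over all genes, and -3.41 over CD200+ non-MRU, beside -0.03.

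**Figure D1:**
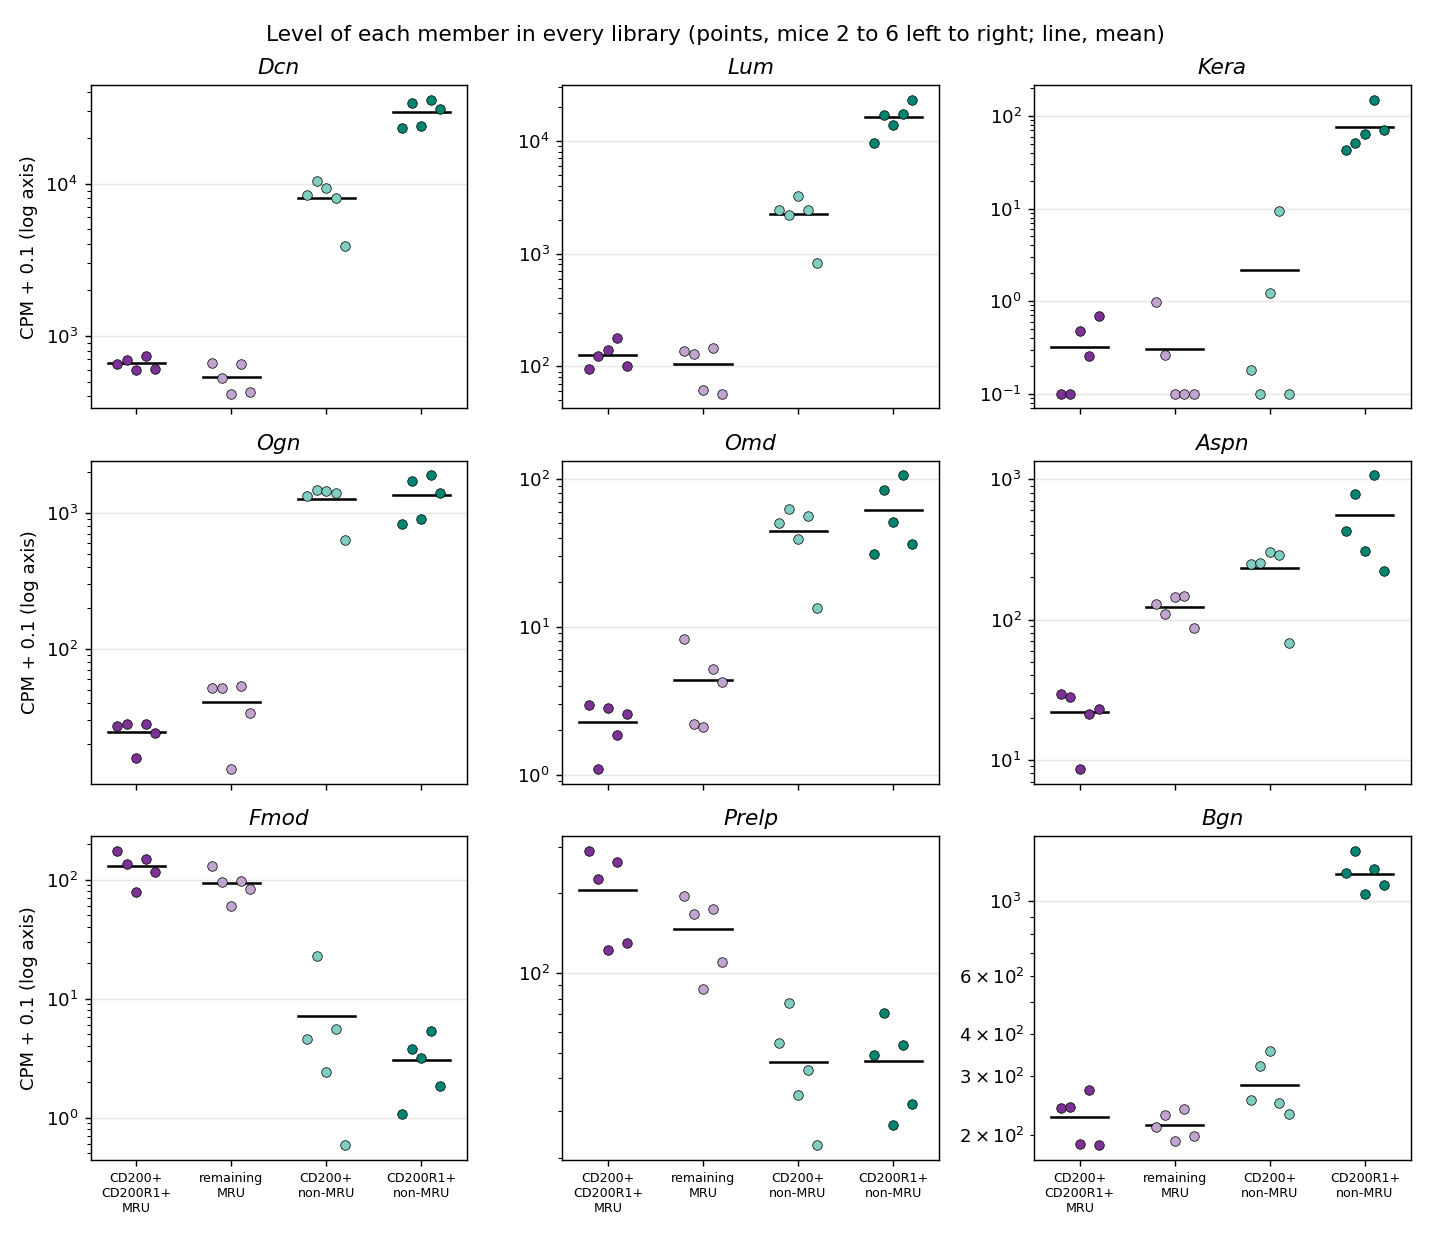
Level of each member as CPM + 0.1 on a log axis, by population, with a point for each library (mice 2 to 6 from left to right) and a line at the mean. Dcn, Lum, Ogn and Omd are high in the non-MRU populations, Kera and Bgn in CD200R1+ non-MRU, and Fmod and Prelp in both MRU populations. Aspn is lowest in CD200+CD200R1+ MRU cells, and its remaining MRU libraries overlap those of CD200+ non-MRU.

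**Figure D2:**
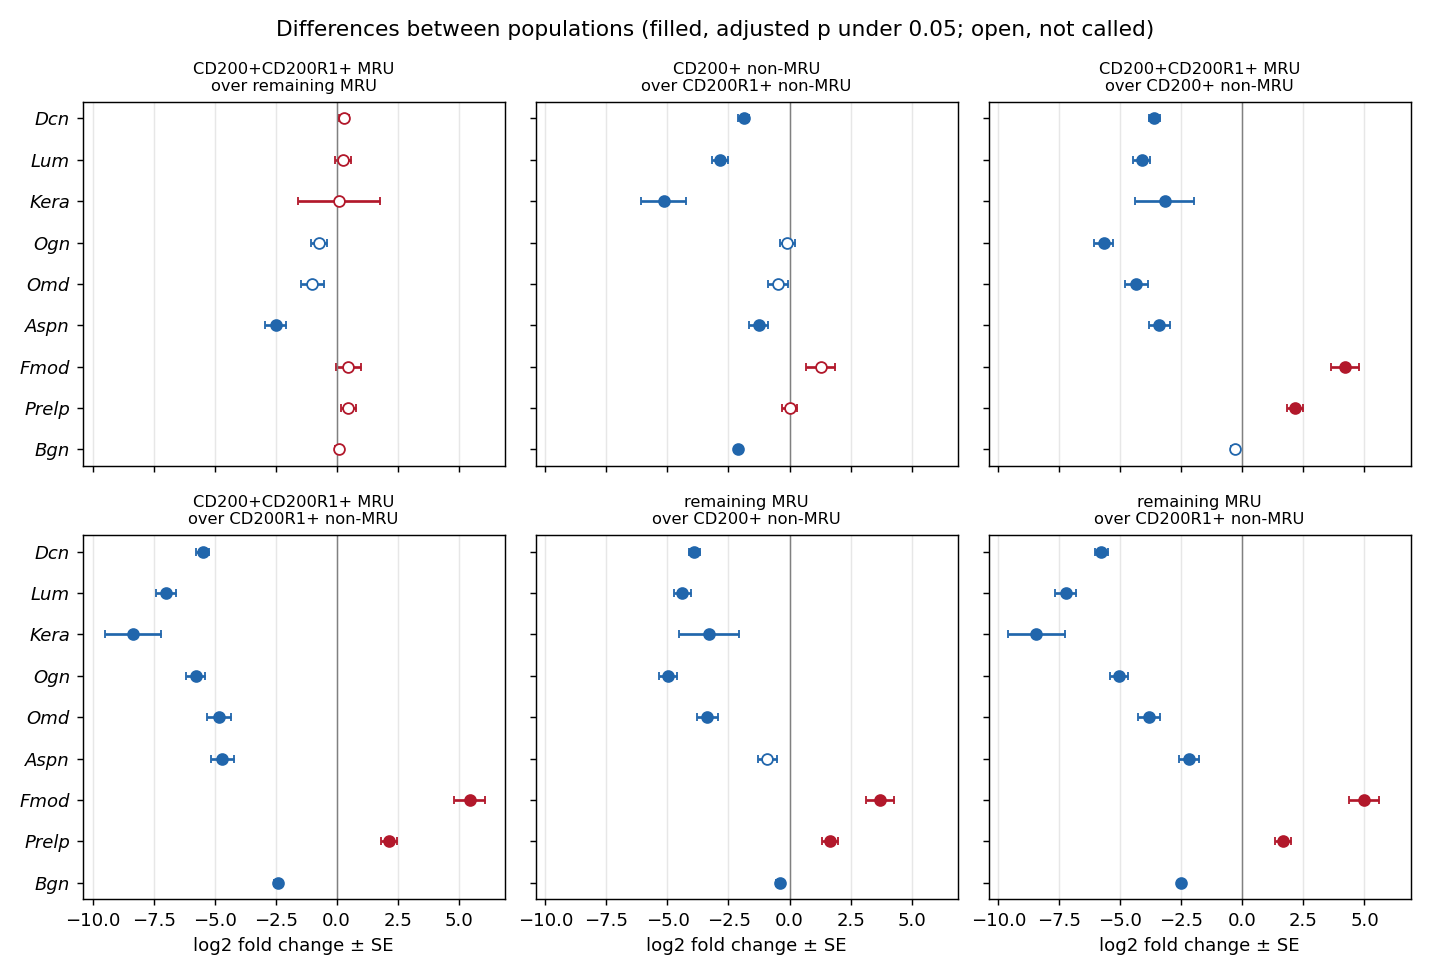
Log2 fold changes with SE (bars) of the 9 members in the 6 comparisons, each titled with the population on top over the one it is divided by; filled points are past the threshold. Fmod and Prelp lie right of 0 in the 4 comparisons of an MRU with a non-MRU population, and Aspn is the filled point within MRU.

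Fmod and Prelp, the neighbours on chromosome 1, were the members with more RNA in the MRU gate. Fmod encodes fibromodulin, a collagen-binding proteoglycan known from tendon and cartilage. Levels are listed throughout for mice 2, 3, 4, 5 and 6 in that order. Fmod stood at 174, 135, 79.2, 148 and 116 CPM in CD200+CD200R1+ MRU cells and at 131, 96.1, 59.8, 97.5 and 83.5 CPM in remaining MRU cells. Outside the gate Fmod stood at 4.50, 22.7, 2.34, 5.44 and 0.489 CPM in CD200+ non-MRU cells and at 0.982, 3.66, 3.08, 5.24 and 1.73 CPM in CD200R1+ non-MRU. Every MRU library was above every non-MRU library, and the CD200+ non-MRU library of mouse 3 was the highest outside the gate. The log2 fold change of CD200+CD200R1+ MRU was 4.19 (SE 0.58) over CD200+ non-MRU and 5.46 (SE 0.64) over CD200R1+ non-MRU, with adjusted p of 5.16e-06 and 3.17e-07. For remaining MRU it was 3.71 (SE 0.57) and 4.98 (SE 0.63) over the same populations, with adjusted p of 1.93e-05 and 1.01e-06. Without the CD200+ non-MRU library of mouse 3 the log2 fold changes over that population were 5.39 for CD200+CD200R1+ MRU and 4.90 for remaining MRU. Fmod was higher in CD200+CD200R1+ MRU than in remaining MRU cells in 5 of 5 mice, but the log2 difference of 0.48 had a 95% interval from -0.50 to 1.46 and an adjusted p of 0.675. Between the non-MRU populations its log2 fold change of 1.27 (SE 0.60) missed the threshold at an adjusted p of 0.0796, and passed it at 0.0149 without the CD200+ non-MRU library of mouse 6 and at 0.043 without that of mouse 4. Without the library of mouse 3, the highest, the log2 fold change was 0.12 with an adjusted p of 0.848.

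Prelp encodes a proteoglycan with a basic, heparin-binding amino end that links basement membrane to the matrix beneath it. Prelp stood at 289, 226, 122, 262 and 129.7 CPM in CD200+CD200R1+ MRU cells and at 196, 167, 87.2, 175 and 110.1 CPM in remaining MRU cells. Outside the gate Prelp stood at 54.4, 76.9, 34.4, 42.9 and 22.3 CPM in CD200+ non-MRU cells and at 48.8, 70.6, 26.6, 53.1 and 31.9 CPM in CD200R1+ non-MRU. Again the MRU libraries lay above all non-MRU libraries, and in all 4 populations mice 2, 3 and 5 were higher than mice 4 and 6. The log2 fold change of CD200+CD200R1+ MRU was 2.16 (SE 0.33) over CD200+ non-MRU and 2.16 (SE 0.34) over CD200R1+ non-MRU, with adjusted p of 2.02e-05 and 1.6e-05. It was 1.67 (SE 0.33) for remaining MRU over either non-MRU population, with adjusted p of 0.000305 and 0.000273. The non-MRU populations averaged 46.2 ± 20.8 CPM (CD200+) and 46.2 ± 17.6 CPM (CD200R1+; SD, n = 5 each), with a 95% interval of the log2 difference from -0.64 to 0.64. Within MRU Prelp was higher in CD200+CD200R1+ MRU in 5 of 5 mice, with a log2 difference of 0.49 (95% interval -0.14 to 1.12) and an adjusted p of 0.449. The antisense gene Gm15851 overlaps 350 exonic bases of Prelp and the strand setting of the counting is not given in the sources used here, but Gm15851 had 4 counts in all 20 libraries.

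Between the gates, the levels of Fmod and Prelp went with the basal markers and against the fibroblast markers. The summed level of 8 basal markers ran from 12277 to 23544 CPM in CD200+CD200R1+ MRU, from 10529.6 to 18035 in remaining MRU cells, from 298 to 975 in CD200+ non-MRU cells and from 33.5 to 149.7 in CD200R1+ non-MRU. All 8 were called higher in CD200+ non-MRU cells than in CD200R1+ non-MRU, whereas Prelp averaged 46.2 CPM in each of these populations. The part of basal cells in the levels of Fmod and Prelp was not tested. Profiles over the 20 libraries were compared on levels centred on each gene's own mean, so they hold the pattern and not the height. The genes with profiles most like that of Fmod were Fhod3 and Wipf3, each with a root mean square log2 difference of 0.58. For Prelp they were Me3, Fnbp1l and Tshz2, at 0.41, 0.49 and 0.49. Optc, the family gene 2.304 kb beyond Prelp, averaged 0.960 CPM in CD200+CD200R1+ MRU, 0.826 in remaining MRU cells, 0.570 in CD200+ non-MRU cells and 0.154 in CD200R1+ non-MRU.

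Dcn, Lum and Kera, the cluster on chromosome 10, were highest in CD200R1+ non-MRU. Dcn encodes decorin, which binds collagen fibrils and also TGF-beta and the EGF receptor. Dcn stood at 652, 696, 597, 738 and 603 CPM in CD200+CD200R1+ MRU cells and at 664, 529.9, 416, 651 and 427 CPM in remaining MRU cells. Outside the gate Dcn stood at 8442, 10399, 9426, 8039.5 and 3879 CPM in CD200+ non-MRU cells and at 23110.2, 34026, 23796, 35683 and 31019 CPM in CD200R1+ non-MRU. The MRU populations overlapped, CD200+ non-MRU lay apart above them, and CD200R1+ non-MRU apart above that. The log2 fold change of CD200+ non-MRU over CD200R1+ non-MRU was -1.88 (SE 0.22), with an adjusted p of 2.65e-07, lower in 5 of 5 mice. CD200+CD200R1+ MRU gave -3.61 (SE 0.23) over CD200+ non-MRU and -5.49 (SE 0.25) over CD200R1+ non-MRU, with adjusted p of 1.52e-10 and 2.72e-13. Within MRU the log2 difference was 0.29 (95% interval -0.12 to 0.70), with an adjusted p of 0.502.

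Lum encodes lumican, a keratan sulfate proteoglycan needed for the regular collagen spacing of the cornea. Lum stood at 94.5, 124, 140.4, 177 and 100.6 CPM in CD200+CD200R1+ MRU cells and at 137, 129, 61.5, 144 and 57.3 CPM in remaining MRU cells. Outside the gate Lum stood at 2425, 2195, 3227, 2422 and 827 CPM in CD200+ non-MRU cells and at 9493, 16989, 13681, 17199 and 23052 CPM in CD200R1+ non-MRU. The order of the populations was that of Dcn, with a steeper step to CD200R1+ non-MRU. The log2 fold change was -2.86 (SE 0.34, adjusted p 3.9e-07) for CD200+ non-MRU over CD200R1+ non-MRU, and -6.98 (SE 0.41, adjusted p 8.34e-12) for CD200+CD200R1+ MRU over CD200R1+ non-MRU. Lum also differed in proportion to Dcn. Its counts were 27.1% ± 5.75 of Dcn counts in CD200+ non-MRU cells and 54.2% ± 12.7 in CD200R1+ non-MRU (SD, n = 5 each), a log2 difference of -0.997 with an adjusted p of 0.0141. In CD200+CD200R1+ MRU cells they were 19.3% ± 4.24 and in remaining MRU cells 19.1% ± 4.76 of Dcn counts, and these did not pass against CD200+ non-MRU, at adjusted p of 0.0737 and 0.0952. These ratios were tested with an exact two-sided permutation test of 5 against 5 libraries, whose smallest possible p is 0.00794, with adjustment over 48 ratios of which 28 passed. Libraries of a mouse were not kept together in it. With pairing by mouse the smallest possible p is 0.0625, so no ratio could pass. All 28 had the same direction in 5 of 5 mice. Apart from Fmod between the non-MRU populations, each had the smallest possible unpaired p of 0.00794, which requires complete separation of the libraries. For these the shared direction followed from the unpaired result and is not separate evidence.

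Kera encodes keratocan, a keratan sulfate proteoglycan of the cornea. Kera stood at 0, 0, 0.377, 0.153 and 0.583 CPM in CD200+CD200R1+ MRU cells and at 0.875, 0.160, 0, 0 and 0 CPM in remaining MRU cells. Outside the gate Kera stood at 0.0789, 0, 1.13, 9.27 and 0 CPM in CD200+ non-MRU cells and at 43.4, 51.5, 64.3, 151 and 70.0 CPM in CD200R1+ non-MRU. These levels rest on 15, 13, 142 and 3763 counts in the same order of populations, and in the libraries without a count the limit that a count of 0 allows was between 0.209 and 0.251 CPM. All 5 CD200R1+ non-MRU libraries lay above all other libraries, and mouse 5 held most of the counts of CD200+ non-MRU. CD200+ non-MRU was lower than CD200R1+ non-MRU by a log2 fold change of -5.16 (SE 0.91), with an adjusted p of 6.74e-05, and by -7.92 without the CD200+ non-MRU library of mouse 5. The calls of Kera as lower in MRU than in CD200+ non-MRU cells, at adjusted p of 0.0321 for CD200+CD200R1+ MRU and 0.0346 for remaining MRU, rest on the library of mouse 5. Without it the adjusted p were 0.813 and 0.777, the calls were lost in 4 and 5 of 10 fits that left out a library, and with mouse as a block they were 0.0906 and 0.103. In the authors' deposited table the first of these comparisons has an adjusted p of 0.174.

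Among genes outside the family, Cpxm1, Tmeff2 and Islr had profiles over the 20 libraries most like that of Dcn. Their root mean square log2 differences were 0.36, 0.37 and 0.39. The genes most like Lum in profile were Lrrc17, Ctsk and Tnfaip6 at 0.41, 0.44 and 0.44. For Kera they were Crabp1, Bmper and Col5a3 at 1.08, 1.09 and 1.11. Epyc, the fourth gene of the cluster, had no count in any CD200+CD200R1+ MRU library and averaged 0.194 CPM in remaining MRU cells, 2.68 in CD200+ non-MRU cells and 12.6 in CD200R1+ non-MRU. Its call as lower in CD200+ non-MRU cells, at an adjusted p of 0.0487, was lost in 7 of 10 fits that left out a library.

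On chromosome 13, Ogn and Omd were high in both non-MRU populations, which overlapped, and Aspn differed within MRU. Ogn encodes osteoglycin, also called mimecan, which regulates collagen fibrils. Ogn stood at 27.3, 28.1, 15.8, 27.9 and 24.1 CPM in CD200+CD200R1+ MRU cells and at 51.3, 51.3, 12.97, 53.8 and 33.8 CPM in remaining MRU cells. Outside the gate Ogn stood at 1336, 1489.5, 1469, 1405 and 631 CPM in CD200+ non-MRU cells and at 827, 1731, 899.8, 1901 and 1412 CPM in CD200R1+ non-MRU. The non-MRU populations overlapped, and the 95% interval of their log2 difference of -0.10 ran from -0.71 to 0.51. All MRU libraries lay below all non-MRU libraries, with log2 fold changes of -5.68 (SE 0.38, adjusted p 2.73e-10) for CD200+CD200R1+ MRU over CD200+ non-MRU and -4.96 (SE 0.37, adjusted p 1.43e-09) for remaining MRU. Relative to Dcn, Ogn counts were 15.9% ± 1.14 in CD200+ non-MRU cells and 4.47% ± 0.774 in CD200R1+ non-MRU, a log2 difference of 1.85 with an adjusted p of 0.0141 by the exact permutation test. That ratio was the steadiest of the 8 within CD200+ non-MRU cells, from 14.3% to 17.5%, although the Ogn level itself was lowest in mouse 6. Within MRU Ogn missed the threshold at a log2 fold change of -0.72 and an adjusted p of 0.203, and passed it at 0.0389 without the remaining MRU library of mouse 4.

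Omd encodes osteomodulin, a keratan sulfate proteoglycan known from bone. Omd stood at 2.84, 0.985, 2.72, 1.76 and 2.48 CPM in CD200+CD200R1+ MRU cells and at 8.11, 2.08, 1.98, 5.10 and 4.09 CPM in remaining MRU cells. Outside the gate Omd stood at 50.2, 62.1, 38.9, 55.8 and 13.3 CPM in CD200+ non-MRU cells and at 30.9, 83.4, 51.3, 105 and 35.9 CPM in CD200R1+ non-MRU. Its pattern was that of Ogn at a lower count level, with overlap inside each gate and none between the gates. The log2 fold change was -4.35 (SE 0.48, adjusted p 2.57e-07) for CD200+CD200R1+ MRU over CD200+ non-MRU and -0.48 (95% interval -1.26 to 0.30, adjusted p 0.328) for CD200+ non-MRU over CD200R1+ non-MRU. Within MRU Omd missed the threshold at -0.99 (95% interval -1.91 to -0.07) and an adjusted p of 0.245, lower in 4 of 5 mice. Relative to Dcn, Omd was 0.528% ± 0.145 in CD200+ non-MRU cells and 0.201% ± 0.0757 in CD200R1+ non-MRU, with an adjusted p of 0.0141.

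Aspn encodes asporin, which binds collagen and TGF-beta. Aspn stood at 29.3, 27.7, 8.45, 21.3 and 22.8 CPM in CD200+CD200R1+ MRU cells and at 128, 109.8, 145, 147 and 87.2 CPM in remaining MRU cells. Outside the gate Aspn stood at 249.6, 253, 305, 286 and 68.0 CPM in CD200+ non-MRU cells and at 426, 781, 306, 1067 and 222 CPM in CD200R1+ non-MRU. All CD200+CD200R1+ MRU libraries lay below all remaining MRU libraries, and the non-MRU populations overlapped. The log2 fold change within MRU was -2.49 (SE 0.42), 5.63-fold lower in CD200+CD200R1+ MRU cells and lower in 5 of 5 mice, with an adjusted p of 0.00032. Over all alternatives and left-out libraries that adjusted p ran from 5.8e-08 to 0.00159. CD200+CD200R1+ MRU was lower than CD200+ non-MRU by -3.41 (SE 0.43, adjusted p 1.79e-06). Remaining MRU was not called against CD200+ non-MRU, at -0.91 (95% interval -1.69 to -0.14) and an adjusted p of 0.067, which became 0.0166 without the CD200+ non-MRU library of mouse 6. CD200+ non-MRU was lower than CD200R1+ non-MRU by -1.27 (SE 0.40) with an adjusted p of 0.0108, which became 0.0554 without the CD200R1+ non-MRU library of mouse 5 and 0.0744 with no scaling beyond library size.

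Aspn moved within MRU together with markers of other cell types. The 6 pericyte markers summed to between 33.7 and 84.97 CPM in CD200+CD200R1+ MRU cells and to between 528 and 751 CPM in remaining MRU cells, and the 7 endothelial markers to between 40.1 and 176 CPM and between 1166 and 1771 CPM in the same populations. No pericyte or endothelial marker was without a count in either population. The fibroblast markers overlapped, at 53.99 to 106 CPM in CD200+CD200R1+ MRU cells and 51.2 to 112 CPM in remaining MRU cells. The part of these cell types in the Aspn difference was not tested. Aspn was also the member whose ratio to Dcn passed within MRU, with counts of 3.31% ± 1.21 of Dcn counts in CD200+CD200R1+ MRU cells and 23.6% ± 6.40 in remaining MRU cells (adjusted p 0.0141, exact permutation test). The ratios of Ogn and Omd were also lower in CD200+CD200R1+ MRU in 5 of 5 mice, with an adjusted p of 0.0635 each by that test. Ogn passed at 0.0254 without the remaining MRU library of mouse 4, and Omd at 0.0263 without that of mouse 3. Ecm2, 11.65 kb from Aspn, averaged 9.21 ± 3.13 CPM in CD200+CD200R1+ MRU cells and 31.995 ± 7.20 CPM in remaining MRU cells, a 3.47-fold lower level with an adjusted p of 0.000276. Of the genes compared, Ecm2 had the profile most like that of Aspn, with a root mean square log2 difference of 0.58. Fhl1 at 0.60 and Adh1 at 0.62 followed. Those most like Ogn were Clec3b, Ifi205 and Cd248, at 0.58, 0.58 and 0.60, of which Clec3b and Cd248 are among the fibroblast markers used here. Apod, Gpc3 and Gfpt2 were most like Omd, at 0.55, 0.55 and 0.59. The gene Cenpp runs on the opposite strand across this cluster and shares 7 exonic bases with Aspn and none with Omd or Ogn.

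**Figure D3:**
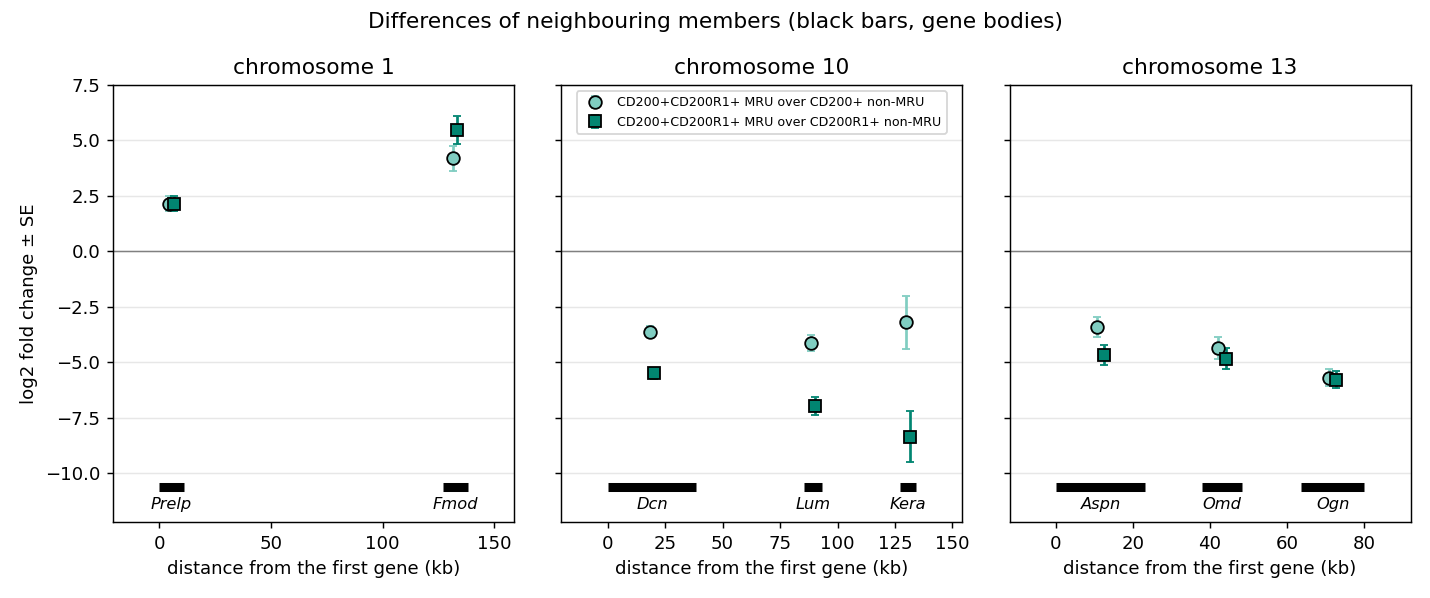
Log2 fold changes with SE of neighbouring members against distance along each cluster in kb, for CD200+CD200R1+ MRU over CD200+ non-MRU (circles) and over CD200R1+ non-MRU (squares); black bars are gene bodies. On chromosome 1 both genes lie above 0. On chromosome 10 the squares lie below the circles, and on chromosome 13 the pairs for Omd and Ogn nearly coincide.

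Bgn, on chromosome X, set CD200R1+ non-MRU apart from the other populations. It encodes biglycan, which binds collagen and, in soluble form, the receptors TLR2 and TLR4. Bgn stood at 242, 242, 188, 273 and 187 CPM in CD200+CD200R1+ MRU cells and at 212, 229.8, 191, 239 and 198 CPM in remaining MRU cells. Outside the gate Bgn stood at 255, 323, 356, 250.1 and 231 CPM in CD200+ non-MRU cells and at 1214, 1414, 1049, 1253 and 1122 CPM in CD200R1+ non-MRU. The first 3 populations overlapped, and all CD200R1+ non-MRU libraries lay above them. CD200+ non-MRU was lower than CD200R1+ non-MRU by -2.10 on the log2 scale (SE 0.14, adjusted p 1.6e-10), and CD200+CD200R1+ MRU by -2.42 (SE 0.15, adjusted p 1.34e-11). Against CD200+ non-MRU the log2 fold change was -0.32 (SE 0.14) for CD200+CD200R1+ MRU, with an adjusted p of 0.0595 that became 0.0326 with mouse as a block. It was -0.40 (SE 0.14) for remaining MRU, with an adjusted p of 0.0224 that was lost in 5 of 10 fits leaving out a library, up to 0.137 without the CD200+ non-MRU library of mouse 4, and became 0.0905 without the filter on low counts. Vkorc1, Cmtm3 and Wipi1 had profiles most like that of Bgn, at root mean square log2 differences of 0.26, 0.28 and 0.30.

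The proportions of Bgn, Fmod and Prelp to Dcn differed between the gates. Bgn counts were 34.3% ± 2.91 of Dcn counts in CD200+CD200R1+ MRU cells and 40.9% ± 6.36 in remaining MRU cells, against 3.80% ± 1.25 in CD200+ non-MRU cells and 4.19% ± 0.702 in CD200R1+ non-MRU. Fmod counts were 19.8% ± 4.76 and 17.4% ± 2.53 of Dcn counts in the MRU populations, against 0.0752% ± 0.0827 in CD200+ non-MRU cells and 0.00964% ± 0.00456 in CD200R1+ non-MRU (SD, n = 5 each). For Prelp the values were 30.8% ± 10.1 in CD200+CD200R1+ MRU, 26.9% ± 3.99 in remaining MRU cells, 0.571% ± 0.139 in CD200+ non-MRU cells and 0.156% ± 0.0513 in CD200R1+ non-MRU. These ratios of Bgn, Fmod and Prelp passed in each comparison of an MRU with a non-MRU population, with an adjusted p of 0.0141. Of 8 ratios tested in each, 1 passed within MRU and 6 between the non-MRU populations. Against CD200+ non-MRU 4 passed for CD200+CD200R1+ MRU and 5 for remaining MRU, and against CD200R1+ non-MRU 5 and 7. The Fmod ratio between the non-MRU populations passed at an adjusted p of 0.0272 by the exact permutation test. That call was lost in 8 of 22 alternatives, all of them with a library left out. All ratios share the Dcn counts.

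**Figure D4:**
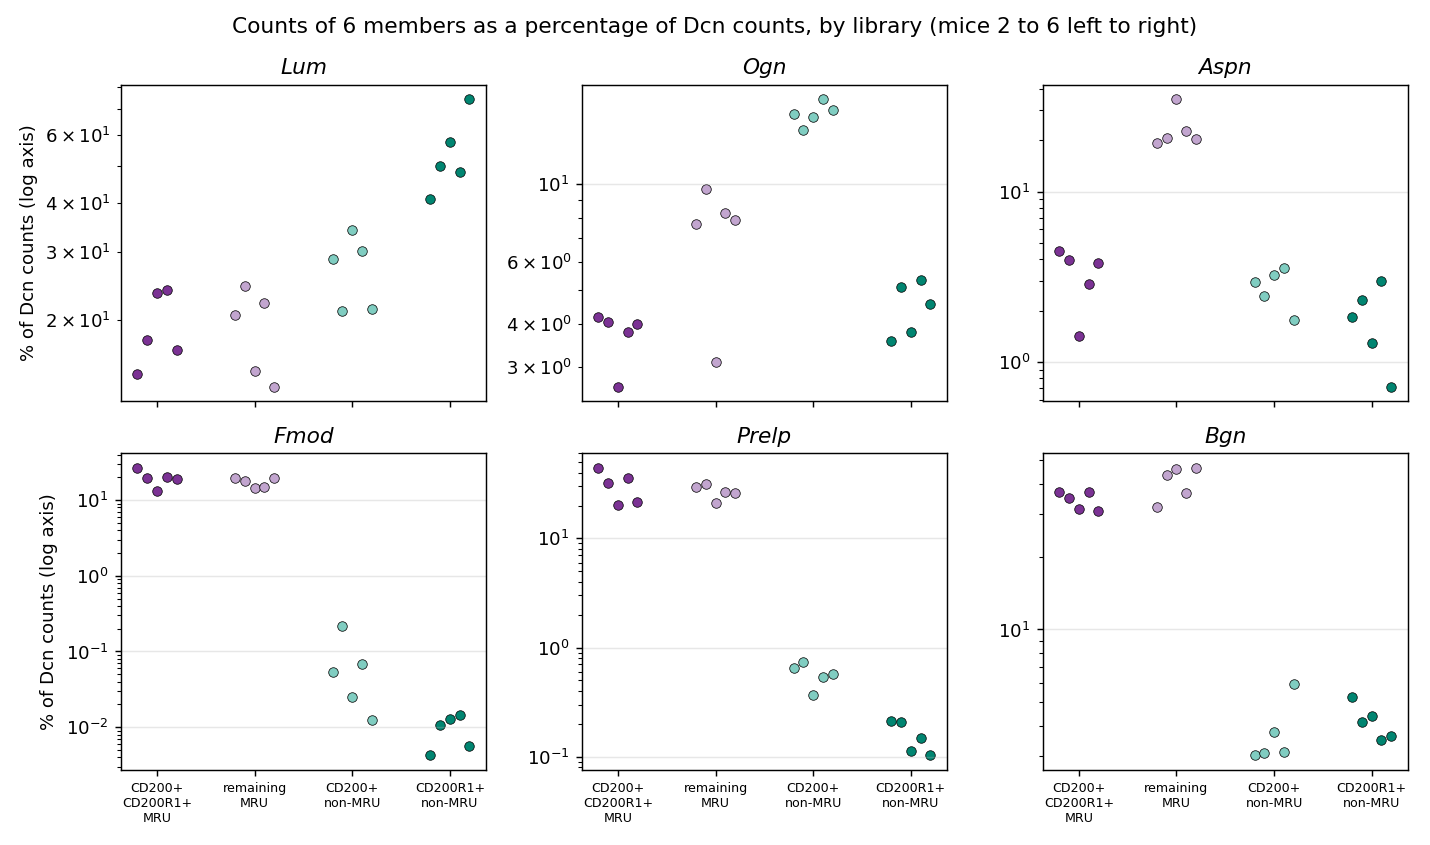
Counts of 6 members as a percentage of Dcn counts in each library, on a log axis (mice 2 to 6 from left to right). Fmod, Prelp and Bgn stand higher in the MRU populations than in the non-MRU populations, Ogn is highest in CD200+ non-MRU cells, and Aspn differs between the MRU populations.

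Per transcript length, Dcn was the leading member in every population. Its share of the members' summed CPM per kb came to 58.9% ± 3.14 in CD200+CD200R1+ MRU, 52.7% ± 1.33 in remaining MRU cells, 73.6% ± 2.51 in CD200+ non-MRU cells and 68.3% ± 3.76 in CD200R1+ non-MRU (SD, n = 5 each). Bgn came next in both MRU populations, with 14.6% ± 0.501 in CD200+CD200R1+ MRU cells and 15.6% ± 2.24 in remaining MRU cells, and Lum came next outside the gate, with 14.3% ± 2.58 in CD200+ non-MRU cells and 26.3% ± 4.55 in CD200R1+ non-MRU. Prelp and Fmod held 8.71% ± 2.41 and 6.498% ± 1.31 in CD200+CD200R1+ MRU cells and 6.89% ± 1.001 and 5.16% ± 0.790 in remaining MRU cells, but 0.206% ± 0.0555 and 0.0318% ± 0.0361 in CD200+ non-MRU cells. Aspn held 1.46% ± 0.512 in CD200+CD200R1+ MRU cells and 9.37% ± 2.50 in remaining MRU cells. Lengths were those of the longest transcript marked principal. With the union of all exons, which is longer for Dcn and Bgn, Lum led in CD200R1+ non-MRU at 51.3% against 40.5% for Dcn, and in CD200+CD200R1+ MRU Bgn fell behind Prelp, Lum and Fmod, at 11.7%. In remaining MRU cells Aspn then came next after Dcn at 17.4%, and Bgn, also at 11.7%, fell behind Lum at 13.5% and Prelp at 12.9%.

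**Figure D5:**
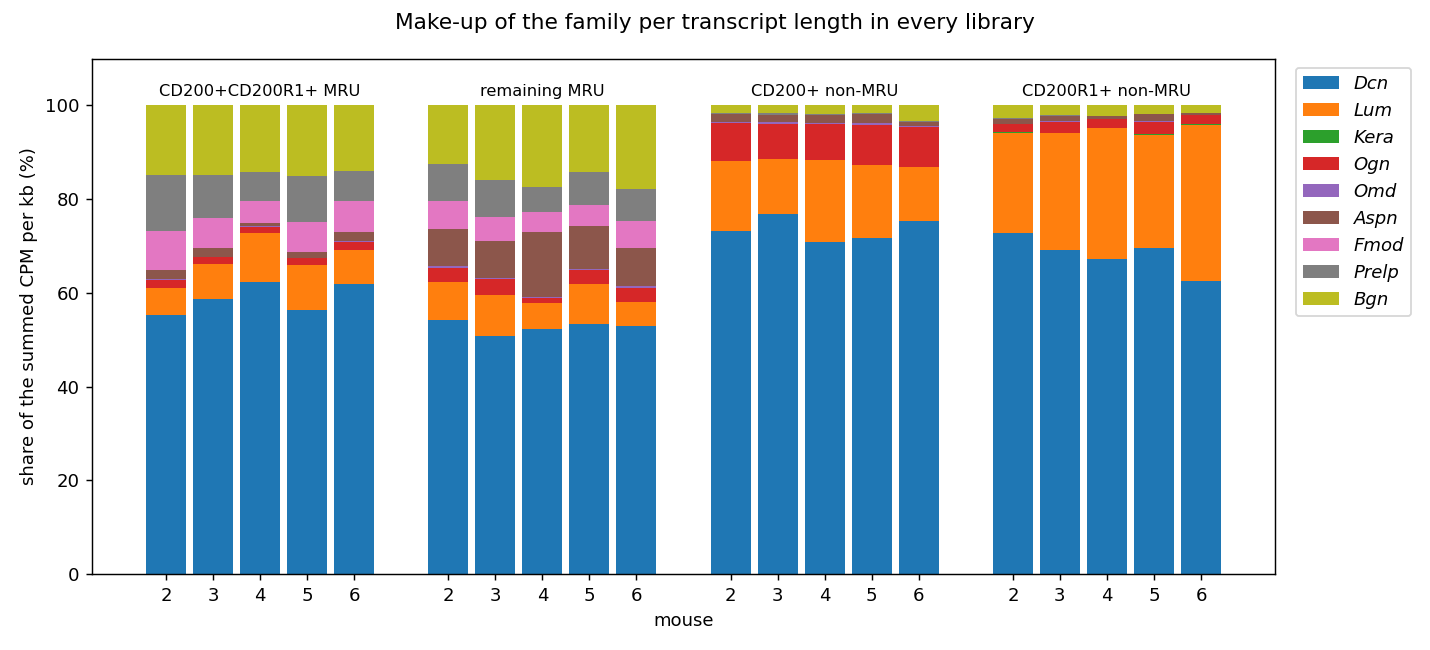
Share of each member in the members' summed CPM per kb of principal transcript, in percent, for each library by population and mouse. Bgn, Prelp and Fmod are visible in the MRU bars and nearly absent, apart from Bgn, outside the gate, and Aspn is widest in remaining MRU cells.

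Other genes of the family and of its pathway were described by counts, to be read beside the shares of all tested genes. Between the non-MRU populations 23.8% of all tested genes were higher in CD200+ non-MRU cells and 28.6% lower. Within MRU 1.62% were higher in CD200+CD200R1+ MRU and 6.64% lower. Of 9 other family genes, 6 were tested, and 4 of them, Ecm2, Epyc, Chadl and Tsku, were lower in CD200+ non-MRU cells than in CD200R1+ non-MRU, or 2 with no scaling beyond library size. Chadl, which encodes a chondroadherin-like matrix protein, averaged 28.02 ± 11.01 CPM in CD200+CD200R1+ MRU, 17.5 ± 8.93 in remaining MRU cells, 3.86 ± 1.85 in CD200+ non-MRU cells and 9.35 ± 4.17 in CD200R1+ non-MRU, and was chosen for mention after its values were seen. Podn, another family gene, averaged 31.8 ± 10.9 CPM in CD200+ non-MRU cells and 32.3 ± 12.6 in CD200R1+ non-MRU, beside 0.789 in CD200+CD200R1+ MRU cells and 1.05 in remaining MRU cells, and was likewise chosen after its values were seen.

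Of 21 tested enzymes that build chondroitin and dermatan sulfate chains, 16 were lower in CD200+ non-MRU cells than in CD200R1+ non-MRU and 2 higher. Among all tested genes 28.6% were lower and 23.8% higher. Of these enzymes Dse, the epimerase that makes dermatan sulfate, was 5.08-fold lower (adjusted p 2.31e-09) and Chsy1, a chondroitin synthase, 6.07-fold lower (adjusted p 1.03e-09). Within MRU 1 gene of this list was higher and 1 lower in CD200+CD200R1+ MRU, where 8.26% of all tested genes were called. There were 3 higher and 1 lower when the MRU libraries were fitted alone, and only the lower one by limma voom. The lower one was Csgalnact1, which starts chondroitin chains, at 3.38 ± 1.74 CPM in CD200+CD200R1+ MRU cells and 24.4 ± 4.47 in remaining MRU cells, 7.20-fold lower with an adjusted p of 2.74e-06. In the list for keratan sulfate and tyrosine sulfation, 3 of 13 genes were higher and 6 lower in CD200+ non-MRU cells. The part that was higher was near the 23.8% of all tested genes, of which 28.6% were lower. B3gnt7, which extends keratan sulfate chains, averaged 19.3 ± 6.91 CPM in CD200+ non-MRU cells and 0.225 ± 0.239 in CD200R1+ non-MRU, 82.4-fold higher with an adjusted p of 8.75e-09. Within MRU 4 genes of that list were lower in CD200+CD200R1+ MRU cells and none higher, among them Papss2, which makes the sulfate donor, at 4.56-fold lower (adjusted p 8.2e-06), and the tyrosine sulfotransferase Tpst1 at 1.81-fold lower (adjusted p 0.00526).

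Of 15 fibril collagens and associated matrix genes, 14 were lower in CD200+ non-MRU cells than in CD200R1+ non-MRU and none higher. Their median log2 fold change was -3.43, and 28.6% of all tested genes were lower in that comparison. Col5a1 averaged 124 ± 14.5 CPM in CD200+ non-MRU cells and 1125 ± 150.2 in CD200R1+ non-MRU (adjusted p 2.33e-12). Within MRU none of the 15 was called by edgeR, DESeq2 or limma voom, although 7 had an unadjusted p below 0.05 in edgeR. With mouse as a block 1 was called, with the MRU libraries fitted alone 2, and 1 without the CD200+CD200R1+ MRU library of mouse 3 or the remaining MRU library of mouse 2. Among 12 genes of collagen processing and crosslinking, 8 were lower in CD200+ non-MRU cells and none higher, led by Lox, the collagen crosslinking oxidase, at 8.55-fold lower (adjusted p 2.51e-10). Lox was also 2.81-fold lower in CD200+CD200R1+ MRU than in remaining MRU cells (adjusted p 6.79e-05), with Pcolce the other of 2 genes called lower there. The call of Pcolce was lost in 7 of 10 fits that left out a library.

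Of 8 growth factors that these proteoglycans are known to bind, 3 were higher and 4 lower in CD200+ non-MRU cells. Among all tested genes 23.8% were higher and 28.6% lower. Within MRU 2 of the growth factors were lower in CD200+CD200R1+ MRU than in remaining MRU cells, beside 6.64% of all tested genes. Without the remaining MRU library of mouse 3 none was called within MRU, and 1 was without the CD200+CD200R1+ MRU library of mouse 2, 4 or 6. Tgfb1 averaged 66.2 ± 17.6 CPM in CD200+ non-MRU cells and 25.3 ± 6.11 in CD200R1+ non-MRU, 2.62-fold higher (adjusted p 4.4e-06), and was 1.66-fold lower in CD200+CD200R1+ MRU than in remaining MRU cells (adjusted p 0.0203), a call lost in 3 of 10 fits that left out a library. Of 10 receptors, 7 were lower in CD200+ non-MRU cells and none higher, among them Egfr at 7.81-fold lower (adjusted p 1.09e-09) and Tlr2 at 4.61-fold lower (adjusted p 4.71e-07). Within MRU the endothelial receptor Kdr was 11.2-fold lower in CD200+CD200R1+ MRU (adjusted p 3.28e-05), where the endothelial markers were also lower, and Lrp1 was 1.58-fold higher (adjusted p 0.00235). The part of endothelial cells in the Kdr difference was not tested. Against CD200+ non-MRU, 6 of the 10 receptors were higher and 1 lower in CD200+CD200R1+ MRU, beside 23.9% and 24.6% of all tested genes. Of 20 other proteoglycan core proteins tested, 3 were higher and 15 lower in CD200+ non-MRU cells than in CD200R1+ non-MRU, while 13 were higher and 5 lower in CD200+CD200R1+ MRU than in CD200+ non-MRU cells. Col18a1, the core of a basement membrane heparan sulfate proteoglycan, was 36.8-fold lower in CD200+ non-MRU cells than in CD200R1+ non-MRU (adjusted p 6.57e-13). Sdc4, a cell surface proteoglycan, was 1.64-fold higher in CD200+CD200R1+ MRU than in remaining MRU cells (adjusted p 0.0313, lost in 5 of 10 such fits), and Esm1, which endothelial cells secrete, was 6.18-fold lower (adjusted p 0.00176).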

How the data were processed

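PolyA RNA of 1000 sorted cells per library was amplified with the SMART-Seq V4 kit, per the labels' protocols. The submitters' processing notes name cutadapt, STAR 2.4.2a, HTSeq, DESeq2 and build GRCm38, with roles and parameters not given in the sources used here. Annotation release and strand setting are likewise not given. Per the file headers, the deposited counts are raw reads of each gene. The normalized signal that the authors deposited equalled each count divided by 1 factor per library. The authors' deposited log2 fold changes and adjusted p-values of 4 comparisons were read for the members, and only 1 adjusted p-value is quoted. No column of per-sample values was left out.

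Counts went into edgeR 4.0.16 (R 4.3.3; filterByExpr, TMM scaling, glmQLFit and glmQLFTest) in a single fit of all 20 libraries with population as its only term, and checked on simulated counts. SE is the log2 fold change divided by the square root of F, and 95% intervals are normal intervals from it. Ratios to Dcn used log2 of the counts with a pseudocount of 0.5, and permutation tests used scipy 1.17.1. Likeness is the root mean square difference of centred log2 CPM with a pseudocount of 0.5, over genes with a mean of at least 10 CPM. Alternatives were limma 3.58.1 voom, DESeq2 1.42.0, other scalings, no filter, the compared libraries alone, a mouse block, and each library left out. Members and gene lists were chosen with earlier results of these data known. Pathway genes named are, within MRU and between the non-MRU populations, up to 4 per list with the smallest adjusted p and at least 10 CPM in the higher population.

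The same number marks the same mouse, so libraries are paired. Deviations from the population mean correlated between same-mouse libraries by 0.191 to 0.349 within MRU, and by means of 0.0757 to 0.119 in the other comparisons. Replicate libraries differed beyond counting noise in all 40 pairs. Limits from counts cover counting error only, as the sources name no molecular identifiers.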

Additional observations from a re-analysis of the deposited data

Results flagged for a closer look

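In groups of 5 libraries, 6 of the 36 combinations of member and population had a library set apart from the others by more than Dixon's 95% critical value of 0.71 of the group's range. Chance gives about 1 in 20 for independent groups of normally distributed values. CPM from few counts, and members measured in the same library, do not meet this, so the rates cannot be compared directly. Kera accounts for 3 of the 6 combinations. The remaining MRU library of mouse 2 had 0.875 CPM of Kera, with the others between 0 and 0.160 CPM. The CD200+ non-MRU library of mouse 5 had 9.27 CPM, with the others between 0 and 1.13 CPM, and the CD200R1+ non-MRU library of mouse 5 had 150.5 CPM, with the others between 43.4 and 70.0 CPM. In CD200+ non-MRU the library of mouse 6 was the lowest for Ogn, at 631 CPM with the others between 1336 and 1489.5 CPM, and for Aspn, at 68.0 CPM with the others between 249.6 and 305 CPM. The same library had the lowest sum of fibroblast markers of its population, at 858 CPM, and the part of these cells in its levels was not tested. For Fmod the CD200+ non-MRU library of mouse 3 was the highest, at 22.7 CPM with the others between 0.489 and 5.44 CPM.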

How the results depend on the processing

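The count of members called was the same or within 1.5 times under each alternative, except within MRU, where 2 instead of 1 were called without the remaining MRU library of mouse 4. Leaving out 1 library gave 1 to 2 called members within MRU, 4 to 6 between the non-MRU populations, 7 to 8 for CD200+CD200R1+ MRU and 6 to 9 for remaining MRU against CD200+ non-MRU, 9 against CD200R1+ non-MRU in either case, and 27 to 30 of the 48 ratios to Dcn. With the replicate block, as an exact permutation within mice chosen after seeing the data, 0 ratios passed, since 5 pairs cannot give a p below 0.0625. With mouse as a replicate block, 8 members were called for CD200+CD200R1+ MRU and 7 for remaining MRU against CD200+ non-MRU, and the block changed no member's call besides those of Kera and Bgn given above. Signs turned only for values that were not called. Over the fits without 1 library, Kera within MRU ran from -0.6245 to 2.2306 on the log2 scale and was negative in 5. Ogn between the non-MRU populations was 0.3450 with no scaling beyond library size, and ran from -0.2331 to 0.0719 without 1 library, positive in 3. Prelp between the non-MRU populations was -0.0142 with the replicate block and -0.0156 with limma voom, and ran from -0.2600 to 0.2037 without 1 library, negative in 4. The cause was not tested. Over all genes, 2546 instead of 1424 were called within MRU when those libraries were fitted alone. With no scaling beyond library size the median log2 fold change over tested genes was 0.37 between the non-MRU populations, beside -0.06, 0.43 instead of 0.01 for CD200+CD200R1+ MRU and 0.41 instead of 0.02 for remaining MRU over CD200R1+ non-MRU. Leaving out the CD200R1+ non-MRU library with cells of mouse 3 changed none of the 27 member calls in the comparisons with that population. Of the pathway counts, the growth factors called between the non-MRU populations were 3 instead of 7 when those libraries were fitted alone, and within MRU the receptors called were 4 with the replicate block and 5 with the MRU libraries alone, instead of 2, and the other proteoglycan core proteins 4 with DESeq2 and 6 with the MRU libraries alone, instead of 2. Depth limits Kera in the 3 populations with few counts of it, where no order can be read.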

Other observations

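Macrophage markers also differed within the MRU gate. The summed level of 8 macrophage markers ran from 1608 to 3218 CPM in CD200+CD200R1+ MRU and from 813 to 1364 CPM in remaining MRU, beside 71.6 to 145 CPM in CD200+ non-MRU and 558 to 2049 CPM in CD200R1+ non-MRU. The 7 lymphocyte markers summed to between 219 and 354 CPM in CD200+CD200R1+ MRU, 127 and 234 CPM in remaining MRU, 1062 and 2275 CPM in CD200+ non-MRU and 136 and 227 CPM in CD200R1+ non-MRU. The 6 adipocyte markers, the 9 luminal and the 4 Schwann cell markers had median sums of 10.6, 2417 and 59.4 CPM in CD200+CD200R1+ MRU, and of 39.9, 2483 and 51.4 CPM in remaining MRU. In CD200+ non-MRU those medians were 8.96, 9915 and 43.3 CPM, and in CD200R1+ non-MRU 3.38, 86.3 and 10.6 CPM. The part of these cell types in the members' levels was not tested.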
